A study of Mus musculus with 2 samples.

Results

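Alx1, Alx4, Prrx1, Prrx2 and Shox2 are 5 genes of the paired-type homeobox class, taken by symbol from the gene and transcript tables of E13.5 mouse facial prominence RNA, which hold 43346 gene rows, 21474 of them protein-coding. All 5 were found in both libraries, together with 19 annotated transcripts. The tissue is the set of swellings of the embryonic head that form the jaws, nose and palate. Total RNA was sequenced from 2 libraries that form a single group: facial prominences of B6NCrl embryos at embryonic day 13.5, males and females pooled, with 10 ng of RNA longer than 200 nt per library. They are biological replicates 1 and 2 in the labels, from separate biosamples under 1 donor entry. The submitters describe no treatment, mutant or second tissue, so the values below are levels in this tissue, with the spread over 2 libraries (SD, n = 2) and no p-value.

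Paired-type homeobox genes encode transcription factors whose homeodomain binds short AT-rich DNA sites, often as dimers on palindromic sites. The Alx genes are best known in the frontonasal mesenchyme, the Prrx genes across the facial and limb mesenchyme, and Shox2 in the anterior palate, the proximal limb and the pacemaker tissue of the heart. Loss of Alx1 or Alx4 disturbs the midface and skull vault, joint loss of Prrx1 and Prrx2 reduces the lower jaw, and loss of Shox2 leaves the anterior palate cleft.

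The homeobox is what joins the 5 genes, and its sequence shows how they divide into an Alx pair, a Prrx pair and Shox2. Each homeobox was read from the GENCODE M21 transcript (GRCm38) as 180 coding bases, 60 codons, on the coding strand. In each gene it lay in exons 2 and 3, with 138 bases in exon 2 and 42 in exon 3. Capitals mark the 18 bases, 6 codons, of the recognition-helix stretch that contacts DNA.
Alx1: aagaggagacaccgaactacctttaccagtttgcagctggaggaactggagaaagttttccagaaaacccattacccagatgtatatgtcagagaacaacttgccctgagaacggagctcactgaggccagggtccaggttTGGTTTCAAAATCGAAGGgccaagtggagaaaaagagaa
Alx4: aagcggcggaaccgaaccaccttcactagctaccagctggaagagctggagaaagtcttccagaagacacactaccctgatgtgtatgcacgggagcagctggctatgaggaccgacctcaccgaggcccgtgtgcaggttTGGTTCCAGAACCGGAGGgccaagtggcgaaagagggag
Prrx1: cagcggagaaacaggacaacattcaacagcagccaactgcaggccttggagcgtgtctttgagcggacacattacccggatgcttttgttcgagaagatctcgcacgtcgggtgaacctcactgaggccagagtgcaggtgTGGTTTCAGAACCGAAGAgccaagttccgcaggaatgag
Prrx2: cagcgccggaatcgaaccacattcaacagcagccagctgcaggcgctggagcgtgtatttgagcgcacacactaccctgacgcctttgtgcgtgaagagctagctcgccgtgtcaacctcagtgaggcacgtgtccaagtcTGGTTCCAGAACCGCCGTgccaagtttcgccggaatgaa
Shox2: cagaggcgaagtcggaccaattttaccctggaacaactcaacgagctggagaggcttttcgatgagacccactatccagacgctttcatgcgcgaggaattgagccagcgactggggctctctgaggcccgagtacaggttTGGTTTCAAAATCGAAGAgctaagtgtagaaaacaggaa
The 6 codons in capitals had the same meaning in all 5 genes, although the bases differed at several of them. Each homeobox was located by a search for this stretch that left only a single codon free. Sameness of meaning at the other capitalised codons was thus fixed in advance and is not a finding. Prrx1 and Prrx2 shared 142 of 180 bases (78.9%) and 58 of 60 codon meanings. Alx1 and Alx4 shared 138 bases (76.7%) and 55 codon meanings. Between the Alx pair, the Prrx pair and Shox2, the shared bases numbered 107 to 125 and the shared codon meanings 39 to 42.

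All 5 genes reached 1 TPM or more in both libraries, where 60.9% of 21474 protein-coding genes did. TPM is a level corrected for transcript length, and each library adds up to 1000000, so it can be compared between genes. In bulk tissue a lower level can come from fewer cells of a type or from less RNA per cell, which cannot be told apart. The median over all protein-coding genes was 4.68 TPM, below each of the 5.

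In the Alx pair, Alx1 (ENSMUSG00000036602.9, chr10:102998707-103030215, minus strand), a regulator of frontonasal neural crest, was at 238 TPM in replicate 1 and 264 in replicate 2 (251 ± 18.1). The 3 transcripts of Alx1 in the tables span chr10:103007846-103029054, within that annotated gene. Alx1 was the highest of the 5 in both libraries, and 497 of 21474 protein-coding genes had a higher mean. Its deposited 95% credibility intervals, 228 to 236 and 250.02 to 260.1 TPM, lie just below these values in both libraries, and its posterior mean levels were 232 and 255 TPM. Alx4 (ENSMUSG00000040310.8, chr2:93642384-93681339, plus strand), which acts in the skull vault and nasal region, was at 25.6 and 22.5 TPM (24.1 ± 2.23). Alx1 thus stood 9.29-fold above Alx4 in replicate 1 and 11.7-fold above it in replicate 2.

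In the Prrx pair the levels were closer. Prrx1 (ENSMUSG00000026586.12, chr1:163245119-163313710, minus strand), a mesenchymal regulator of jaw and limb skeleton, was at 142 and 131 TPM (137 ± 7.63). Prrx2 (ENSMUSG00000039476.9, chr2:30834972-30881251, plus strand), its partly redundant relative, was at 80.9 and 79.8 TPM (80.3 ± 0.778). Prrx1 stood 1.76-fold above Prrx2 in replicate 1 and 1.65-fold above it in replicate 2. Shox2 (ENSMUSG00000027833.12, chr3:66971727-66981771, minus strand), a regulator of anterior palate growth, was at 23.2 TPM in replicate 1 and 34.1 in replicate 2 (28.6 ± 7.69). It was the lowest of the 5 in replicate 1 and above Alx4 in replicate 2, with the widest relative spread of the 5, 26.9% of its mean.

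The order was compared over all 10 pairs, calling a pair apart where the deposited 95% credibility intervals did not overlap in either library and the same gene was higher in both. By this rule 9 of 10 pairs were apart. Alx1 stood above Prrx1 by 0.87 ± 0.18 on the log2 scale of TPM, above Prrx2 by 1.64 ± 0.12 and above Shox2 by 3.16 ± 0.29. Prrx1 exceeded Alx4 by 2.51 ± 0.05 and Shox2 by 2.28 ± 0.47, and Prrx2 exceeded them by 1.74 ± 0.12 and 1.51 ± 0.41. The order Alx1, Prrx1, Prrx2, then the other 2 genes, was thus the same in both libraries. The exception was Shox2 against Alx4. Their log2 ratio was -0.15 in replicate 1, where the intervals overlapped, and 0.60 in replicate 2, where they did not. These intervals cover the reads of 1 library and not the spread between embryos.

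Among the paired-class genes listed here the 5 held most of the signal. Their TPM summed to 510.1 and 531.6, against 231 and 205 for the 29 other paired-class genes of a chosen list. They thus made up 70.5% ± 2.36 of these listed genes, which need not be the whole class. Of their own sum Alx1 held 48.2% ± 2.08, Prrx1 26.3% ± 2.23, Prrx2 15.4% ± 0.599, Shox2 5.48% ± 1.32 and Alx4 4.63% ± 0.563. Of the 29 others, 12 reached 1 TPM in both libraries, a lower share than the 60.9% of all protein-coding genes. The median over all 29 was 0.16 TPM.

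**Figure D1:**
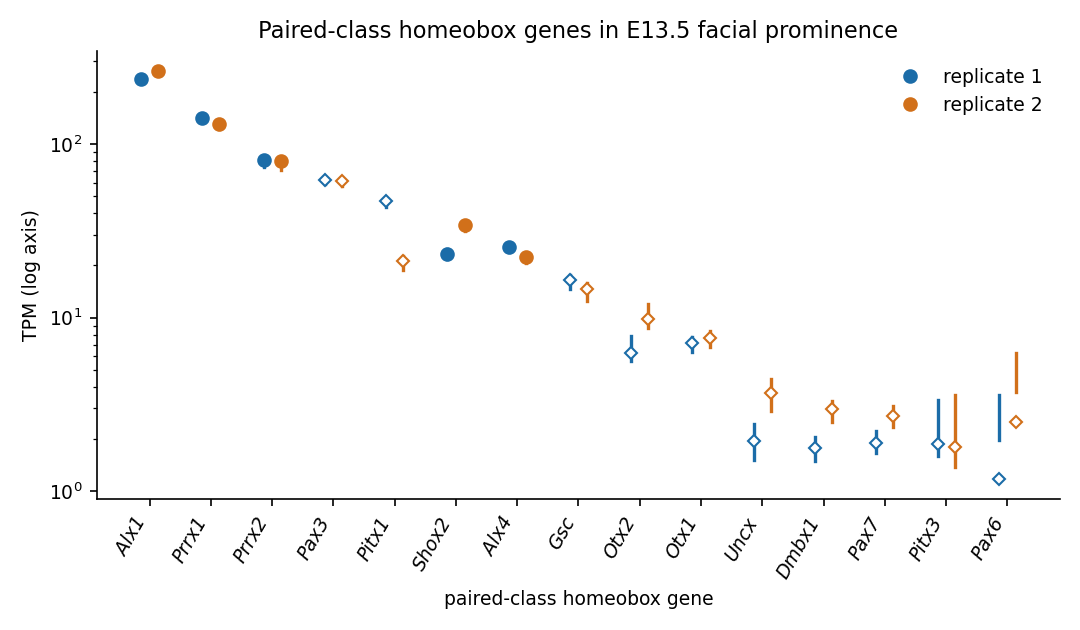
Levels of 15 paired-class homeobox genes that reached 1 TPM in each library (TPM, log axis), ordered by mean level. Filled circles are Alx1, Alx4, Prrx1, Prrx2 and Shox2, open diamonds 10 of the 12 other genes, blue replicate 1 and orange replicate 2, and vertical lines the deposited 95% credibility intervals. Among the genes plotted Alx1, Prrx1 and Prrx2 lead, and Shox2 and Alx4 stand between Pitx1 and Gsc.

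Below Prrx2 came Pax3, a neural crest and muscle precursor gene, at 61.7 ± 0.375 TPM. Pitx1, a regulator of jaw development, was at 47 TPM in replicate 1 and 21.2 in replicate 2 (34.1 ± 18.2), above the means of Shox2 and Alx4. It was above Shox2 in replicate 1 and below it in replicate 2, without overlap of the intervals in either. Against Alx4 it was higher in replicate 1, and the intervals overlapped in replicate 2. The order of these 3 genes was thus not resolved. Below Alx4 came Gsc (15.6 ± 1.32 TPM), Otx2 (8.05 ± 2.55), Otx1 (7.38 ± 0.389) and Uncx (2.82 ± 1.23). Then came Dmbx1 (2.38 ± 0.856), Pax7 (2.30 ± 0.573), Pitx3 (1.84 ± 0.0495) and Pax6 (1.84 ± 0.940). Pax6, at 1.18 and 2.51 TPM, lay below its own deposited intervals, 1.96 to 3.56 and 3.72 to 6.24. Its place in this order is thus uncertain.

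Likeness in level was measured over the 58 genes of the homeobox lists that are not among the 5, as the sum over 2 libraries of the absolute difference in log2 TPM. Of the 58, 39 reached 1 TPM in both libraries, where 60.9% of all protein-coding genes did, and the median over all 58 was 5.98 TPM. Nearest to Alx1 was Msx1, a homeobox gene of facial mesenchyme, at a distance of 1.48 and 420 ± 29.1 TPM, followed by Pax3 at a distance of 4.05. Pax3 was also nearest to Prrx1 (2.30) and to Prrx2 (0.76). Irx3, at 22.0 ± 5.05 TPM, was among the 2 nearest to Alx4, at a distance of 0.29. Shox2 lay nearest to Meis2 (0.53, at 33.8 ± 1.88 TPM). With 2 libraries this describes closeness of level and nothing further.

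Between the libraries Shox2 was higher in replicate 2, Alx4, Prrx1 and Prrx2 were lower, and Alx1 was nearly level. Expected counts (estimated reads per gene) were scaled by TMM, which sets library sizes from the bulk of genes, and the ratio of replicate 2 to replicate 1 was given an exact 95% interval of counting error only. Shox2 had 1268.8 expected counts in replicate 1 and 1418.9 in replicate 2, a log2 ratio of 0.45 (0.34 to 0.56), or 1.37-fold higher in replicate 2. Alx4 had 2825 and 1892 counts, -0.29 (-0.37 to -0.20). Prrx2 had 1710 and 1162, -0.27 (-0.37 to -0.16). Prrx1 had 12878 and 9167, -0.20 (-0.24 to -0.16), while Alx1, with 12117 and 10173, stood at 0.04 (0.00 to 0.08). So 0 of 5 passed 1.5-fold in either direction, where 0.724% of 6212 genes with a mean count of 1000 or more did (0.531% higher and 0.193% lower in replicate 2). Spike-in totals in place of TMM shifted the median gene by 0.56. Under them 2 of 5 passed, Alx1 at 0.60 and Shox2 at 1.01, and Alx4, Prrx1 and Prrx2 changed sign to 0.27, 0.36 and 0.29. The median of the 6212 genes was itself at 0.52 under spike-in totals, with Alx1 only 0.08 above it. The share of all genes past 1.5-fold was not computed there, so these 2 calls are not read as results about the members. Under TMM 99.1% of those 6212 genes had a lower ratio than Shox2 and 73.5% a lower one than Alx1. For Prrx1 it was 11.5%, for Prrx2 4.30% and for Alx4 2.93%. From percentile 5 to percentile 95 the ratios of these genes spanned -0.26 to 0.19. Shox2 lay above that range, Alx4 and Prrx2 just below it, and Prrx1 and Alx1 within it. With 1 library on each side these are differences between 2 libraries.

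Prrx2 shows how length enters this comparison. Its counts were 0.83-fold in replicate 2 relative to replicate 1 after scaling, yet its TPM was almost the same in both. Part of that gap is scaling, since the ratio of TPM put the median gene 0.10 (log2) higher than TMM did. Relative to the median gene Prrx2 stood at -0.22 by counts and -0.07 by TPM. The mean transcript length deposited for the gene went from 1098.7 to 1002.2 bases, while the shares of Prrx2-202 (1070 bases) and Prrx2-204 (486) were larger in replicate 2 and those of Prrx2-201 (1441) and Prrx2-203 (678) smaller. The other 4 genes changed little in length between libraries, and their TPM and count ratios had the same direction.

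Markers of tissues outside the face also differed between the libraries. The 9 heart and sinus node genes summed to 17.1 TPM in replicate 1 and 43.2 in replicate 2, with 2 and 7 of 9 at 1 TPM or more. The atrial peptide gene Nppa was at 0.19 and 8.26 TPM and the atrial myosin light chain gene Myl7 at 0.96 and 7.95, while Hcn4, a pacemaker channel gene of the sinus node, was at 0.24 and 0.18. The list was led by Isl1 (8.09 ± 1.44 TPM) and Tbx18 (7.34 ± 1.44), which facial tissue also expresses. Isl1 is also in the sensory neuron list and Tbx5 also in the limb list. The 8 liver genes summed to 4.15 and 278 TPM, with 1 and 8 of 8 at 1 TPM or more, led by Afp, the fetal serum protein gene, at 0.45 and 84.7, Apoa1 at 0.96 and 53.1 and Alb at 1.34 and 46.5. Both sums moved the same way as Shox2, which the heart also expresses, and their part in its ratio was not tested.

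Limb and sensory neuron markers were also measured. Of 7 limb genes 4 were at 0 in both libraries, and the list summed to 3.13 and 2.70 TPM, led by Tbx4 (2.30 ± 0.0283), Tbx5 (0.59 ± 0.311) and Hoxd13 (0 and 0.05). The 9 sensory neuron genes summed to 37.2 and 46.6 TPM, with 6 of 9 detected in each library, led by Runx1 (16.5 ± 3.64), Ntrk2 (8.31 ± 1.64) and Isl1. Within it Prph, a neuronal filament gene, was at 1.34 and 5.05 TPM, a log2 ratio of 1.80 (1.32 to 2.31), the same direction as Shox2, and its part was likewise not tested. The tissue's own markers were present: all 8 neural crest mesenchyme genes, which summed to 849 and 820 TPM and were led by Msx1, Osr1 (125 ± 2.38) and Snai1 (91.8 ± 6.95), and all 8 epithelial genes, at 1081 and 1036 TPM, led by Krt14 (476 ± 44.7), Krt5 (342 ± 45.7) and Epcam (82.5 ± 25.9). Within the epithelial list the simple-epithelium keratin gene Krt8 was at 31.6 and 72.2 TPM, while Trp63, a basal-layer gene, was at 44.9 and 44.2.

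**Figure D2:**
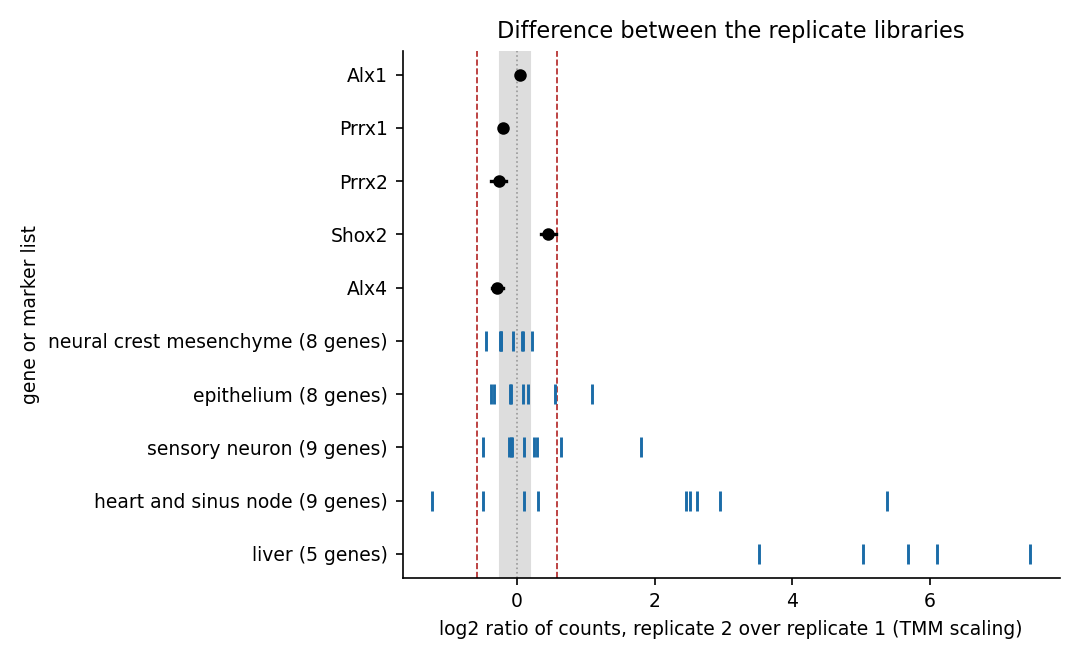
Log2 ratio of scaled counts, replicate 2 over replicate 1. Black points are Alx1, Prrx1, Prrx2, Shox2 and Alx4 with their 95% counting intervals. Blue ticks are genes of the neural crest mesenchyme, epithelium, sensory neuron, heart and sinus node, and liver lists with at least 3 counts in both libraries. The limb list is not drawn. The grey band runs from percentile 5 to 95 of the 6212 genes with a mean count of 1000 or more, and the dashed lines mark 1.5-fold. Shox2 lies to the right of the band, the liver genes plotted lie far to the right, and no black point passes a dashed line.

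At the transcript level all 19 transcripts had the same length in the tables as in GENCODE M21, and 14 were annotated as protein coding. Each of the 14 held the whole homeobox. The leading transcript by TPM was the same in both libraries for 5 of 5 genes, but its share in replicate 1 ranged from 33.0% for Prrx1 to 97.1% for Alx4, as the plot of transcript shares shows. Shares are of the gene's summed transcript TPM, and estimates for transcripts that share exons depend on how the quantifier divided reads.

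In the Alx pair 1 transcript dominated. Alx1-201 held 93.3% and 94.0% of Alx1 in replicates 1 and 2. Alx1-203, with 1 more exon and the same 978 coding bases, held 6.45% and 4.63%, and the non-coding Alx1-202 held 0.20% and 1.41%. Alx4-201 held 97.1% and 96.8% of Alx4. Alx4-202, which keeps the intron after exon 3 and has 975 coding bases in place of 1197, held 2.92% and 3.24%. Among the transcripts quantified, the coding output of both Alx genes was thus close to a single form in each library. For Alx1 these were 3 transcripts, where GENCODE M21 annotates 8, so the further Alx1 forms were not measured.

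Prrx1 was spread over several transcripts. Prrx1-201, with 735 coding bases, held 33.0% and 41.1%, and Prrx1-202, with 651, held 11.1% and 4.58%. They differ by a 72-base exon (chr1:163253977-163254048) that Prrx1-202 includes. It brings an early stop, so that the shorter protein lacks the conserved motif at the end of paired-type proteins called OAR. The coding part of that exon is shown because it sets the end of the shorter protein, with the stop codon in capitals (55 bases, minus strand, chr1:163253994-163254048).
Prrx1 alternative exon: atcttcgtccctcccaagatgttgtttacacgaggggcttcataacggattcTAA
The non-coding Prrx1-205, which starts inside the gene and also carries this exon, held 26.0% and 25.1%. Together the transcripts with the spliced 72-base exon held 37.1% and 29.7% of Prrx1. Prrx1-204 runs on into the intron after exon 3, ends there with 600 coding bases, and held 27.3% and 27.2%. Prrx1-203, of the retained-intron type, held 2.60% and 1.98%. Transcripts of types other than protein coding made up 27.8% ± 1.04 of Prrx1. The credibility interval of Prrx1-202 was wide, 10.4 to 21.0 TPM in replicate 1 and 1.56 to 10.4 in replicate 2, and the intervals overlapped at their edges.

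Prrx2 also had mixed transcripts. Prrx2-201, with 741 coding bases, held 50.2% and 38.0%. Prrx2-202 starts 10087 bp further upstream, has 525 coding bases, and held 15.3% and 19.9%. Its first coding exon replaces that of Prrx2-201 and is shown because it is the only coding sequence of the transcript not shared with it (31 bases, plus strand, chr2:30835222-30835252, with no part capitalised).
Prrx2-202 first coding exon: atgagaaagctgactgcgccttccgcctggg
Of the retained-intron types, Prrx2-203 held 23.0% and 19.5% and Prrx2-204 11.5% and 22.7%. Prrx2-204 had 76.2 and 112.8 expected counts, and its intervals, 5.46 to 13.2 TPM and 12.5 to 23.3 TPM, overlapped. By TPM, types other than protein coding made up 38.3% ± 5.39 of Prrx2, a larger share than in any of the other 4 genes in both libraries. These shares depend on the division by length. By expected counts the longer Prrx2-201 held a mean of 61.9%, against 44.1% by TPM.

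The estimated transcript makeup of Shox2 was nearly the same in both libraries while its level differed. Shox2-203 held 83.1% and 83.2%, and Shox2-201 14.8% and 14.8%. Shox2-201 has 993 coding bases, against 719 annotated for Shox2-203, which is not a whole number of codons. Among the 5 transcripts Shox2-201 alone starts its last exon 36 bases, 12 codons, further upstream, and this stretch is shown because it distinguishes the forms (minus strand, chr3:66973908-66973943, with no part capitalised).
Shox2-201 extra bases: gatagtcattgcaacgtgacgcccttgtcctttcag
Shox2-202 held 2.16% and 1.15%, Shox2-204 0% and 0.910%, and Shox2-205 was listed at 0 in both. The TPM of Shox2-203 rested on 1037.2 and 1163 expected counts, and that of Shox2-201 on 216 and 242. The credibility interval of Shox2-201 was wide, 2.52 to 4.36 TPM in replicate 1 and 3.61 to 6.27 in replicate 2. By posterior mean TPM Shox2-203 held a mean of 79.6%. The shares are thus less well resolved than their closeness in the 2 libraries implies.

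**Figure D3:**
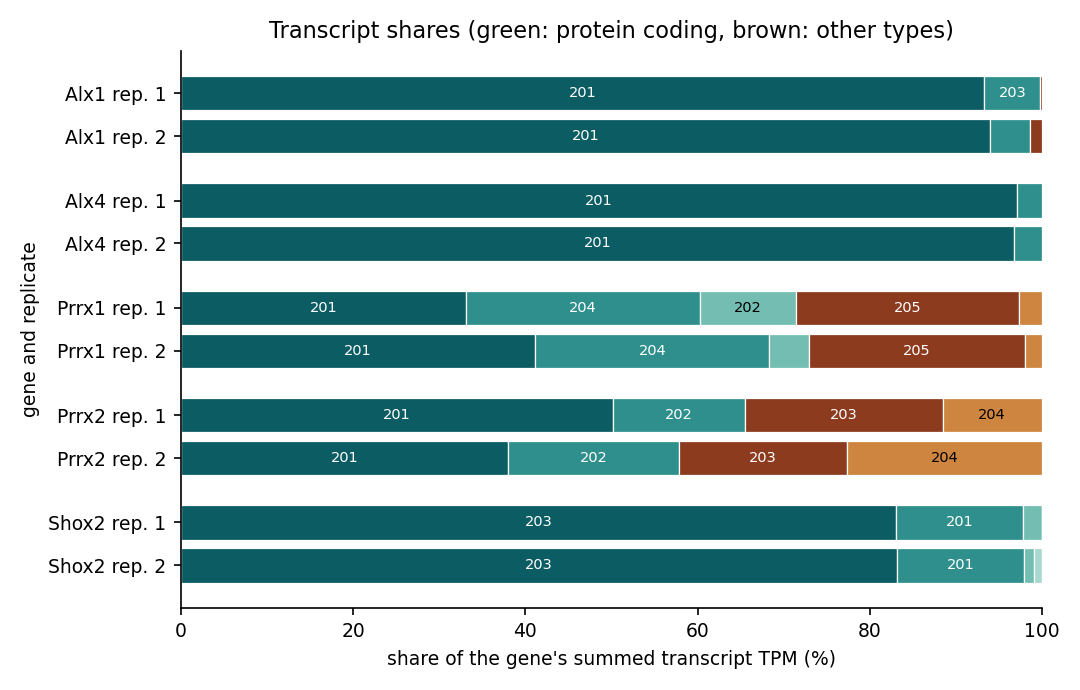
Share of each gene's summed transcript TPM (percent) held by each annotated transcript, with 1 bar per gene and replicate. Green marks transcripts of the protein-coding type and brown the other types, and numbers are the transcript suffixes. Alx1, Alx4 and Shox2 have 1 long green block in both libraries, while Prrx1 and Prrx2 are divided.

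**Figure D4:**
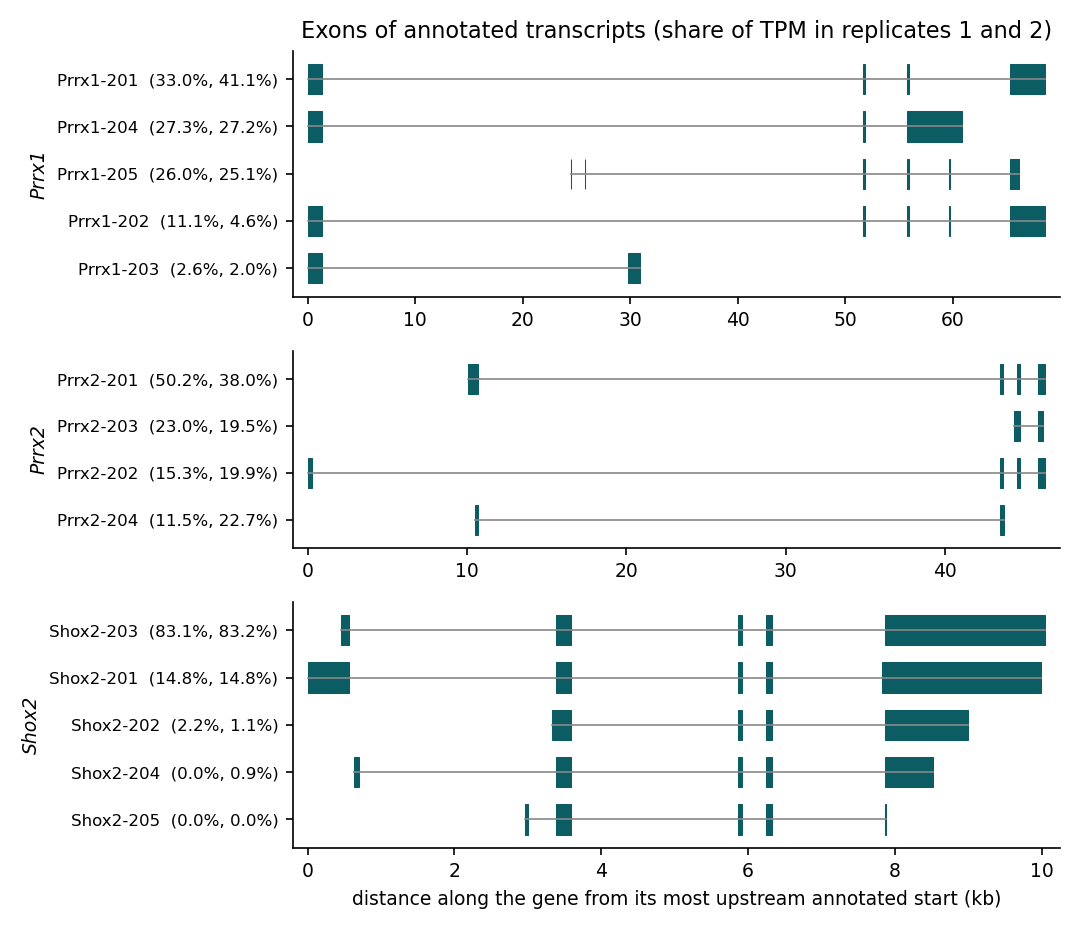
Exons (blocks) and introns (lines) of the annotated transcripts of Prrx1, Prrx2 and Shox2, drawn to scale in kb from the most upstream annotated start along the direction of transcription. Labels give each transcript's share in replicates 1 and 2. Prrx1-204 has a long last exon, Prrx2-202 an upstream start 10087 bp from that of Prrx2-201, and Shox2-201 a longer first exon than Shox2-203.

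Genes that overlap the 5 were checked for shared exons, since the strandedness of the libraries was not stated in the labels or notes used here. Ext2, a heparan sulfate synthesis gene on the opposite strand of Alx4, was at 84.8 ± 10.2 TPM, above Alx4, but shares 0 exonic bases with it. Rsrc1, a splicing-related gene on the opposite strand of Shox2, was at 35.2 ± 2.18 TPM and shares 153 exonic bases, 4.62% of the exonic bases of Shox2, all in Shox2-201. The expected counts of Shox2 were not whole, while those of the other 4 genes were (within 0.005), and Shox2 and Rsrc1 together came to whole numbers, 2951 and 2720. The deposited posterior SD of the Shox2 count was 0.69 in each library. Without Shox2-201, the log2 ratio of replicate 2 to replicate 1 for Shox2 was 0.45 (0.33 to 0.57), a comparison added after the data were seen.

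The introns of Prrx1 hold 3 other annotated genes with 0 shared exonic bases: the long non-coding Gm26523 on the same strand (41.0 ± 0.884 TPM), the antisense Gm20471 (11.6 ± 2.72) and Gm37644 on the same strand (5.26 ± 0.113). Gm17028, a long non-coding gene that overlaps the annotated span of Alx1, was at 6.68 ± 1.05 TPM. It had 0 exonic bases shared with the quantified Alx1 transcripts. The annotated Alx1 span reaches beyond those transcripts into Gm17028, and any Alx1 exons there were not checked. Within 10000 bp of Prrx2 lie Asb6, at 32.8 ± 3.61 TPM and 4639 bp away, and Ptges, the prostaglandin E synthase gene, at 13.1 ± 2.28 TPM and 8220 bp away. The nearest protein-coding genes of the other 4 were mostly low or undetected. Around Alx1 these were Lrriq1 (1.56 ± 0.438 TPM) and Rassf9 (2.75 ± 0.849), around Alx4 Accs (6.62 ± 0.0849) and Gm10803 (0 in both), around Shox2 Veph1 (2.63 ± 0.799) and Gm17402 (0 in both), and around Prrx1 Gorab (31.2 ± 0.368) and Mroh9 (0 in both). Ext2, Gm26523, Rsrc1, Asb6 and Gorab were thus the neighbours of highest level.

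Promoters of 300 bases, 250 before and 50 after the gene start, were matched in RefSeq (GRCm38.p6) for 3 of 5 genes: Prrx1, Prrx2 and Shox2. The Prrx2 window (chr2:30845117-30845416) lies within the first exon of Prrx2-201, and far downstream of the start of Prrx2-202. The Shox2 window (chr3:66981722-66982021) is set on the start of Shox2-201, upstream of that of the leading Shox2-203. The promoter of Prrx1 had 47.7% GC and 4 matches of the homeodomain core TAAT on either strand, of which 2 overlap in a single TAATTA that begins at -173 from the start. TAAT occurs in 58.0% of 32851 such promoters and TAATTA in 5.29%. The promoter of Prrx2 had 70.3% GC, above that of 90.9% of promoters, with no TAAT, 2 matches of GGGCGG (held by 35.7% of promoters) and 2 of GCCNNNGGC, the letters of a Tfap2 site (16.6%). The promoter of Shox2 had 53.3% GC, 1 TAAT, 1 TATAAA (held by 13.6% of promoters) and 1 GGGCGG. The palindromic site of paired-class dimers, TAAT followed after 3 bases of any kind by its reverse complement, was found in 0 of the 3, and in 0.487% of all promoters. The other motifs searched on both strands, CANNTG and CCAAT, had no match in these 3 windows. They occur in 72.3% and 37.4% of promoters. These are letter matches and not measured binding.

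The genes that work beside the 5 in the face were broadly detected, where 60.9% of all protein-coding genes reached 1 TPM in both libraries. In the midface patterning list 14 of 17 genes reached 1 TPM in both libraries (median 16.4 TPM, against 4.68 over all protein-coding genes), led by the neural crest factor gene Tfap2b (75.0 ± 5.17 TPM), Pax3 and the growth factor receptor gene Pdgfra (61.1 ± 9.50). In the palate list it was 18 of 19 (median 30.8 TPM), led by Msx1, the signalling ligand gene Wnt5a (229 ± 27.1) and the receptor gene Fgfr2 (145 ± 14.0). Of other facial homeobox genes 27 of 29 were detected (median 16.4 TPM), led by Msx1, Lhx8 (46.4 ± 1.27) and Meis1 (40.8 ± 6.92). Alx1 at 251 TPM lay above every gene of these 3 lists but Msx1, and Prrx1 lay below Msx1 and Wnt5a in both libraries. Prrx1 was above Fgfr2 in replicate 1 (142 against 135 TPM) and below it in replicate 2 (131 against 155).

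Genes of the mesenchyme and skeleton, the tissues in which the 5 factors act, were also detected. Detection again means 1 TPM or more in both libraries, reached by 60.9% of all protein-coding genes. All 19 mesenchyme and matrix genes were detected (median 147 TPM), led by the collagen genes Col3a1 (1113 ± 34.1) and Col1a1 (881 ± 92.9) and by Vim (745 ± 59.3). Of 20 cartilage and bone genes 17 were detected (median 21.1 TPM), led by the cartilage collagen gene Col2a1 (263 ± 46.7), the bone sialoprotein gene Ibsp (239 ± 77.2) and Pth1r (112 ± 11.4). The Ibsp level was lower and the Col2a1 level higher in replicate 2 than in replicate 1. No gene was tested between conditions, and these lists describe the same 2 libraries.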

How the data were processed

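Total RNA was measured in 2 libraries of 1 group, each with a gene and a transcript table. The deposited notes name assembly mm10 and GENCODE M4, while the aligner, quantifier and strandedness are not given in the sources used here. Per the file headers, the authors' values were expected counts (estimated reads), TPM, FPKM, posterior SDs of counts (treated as a score), bounds of a TPM credibility interval (treated as a signal in TPM, at 95%) and isoform percent values. TPM totals 1000000 over all 69691 deposited rows, spike-ins included, which took 13.4% and 9.68% of TPM and 6.27% and 4.45% of counts in replicates 1 and 2. Gene rows held 28542452 and 22719352 expected counts. Rows without a gene identifier (spike-ins, phiX, bare numbers) were not used for ratios.

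Symbols came from GENCODE M21 by gene identifier (42462 of 43346 rows matched). Drgx of the paired-class list matched no row, and 157 of 158 distinct list genes did. The members and the 12 lists were chosen with earlier results of these data known. Named genes were all members and transcripts, other paired-class genes at 1 TPM, the 3 highest of each list, the 2 nearest in level, and overlapping or neighbouring genes. Nppa, Hcn4, Prph, Krt8 and Trp63 were named after their values were seen. Expected counts were rounded and scaled with TMM (edgeR 4.0.16), with DESeq2 1.42.0 size factors as an alternative, and Clopper-Pearson intervals came from scipy 1.17.1. Reads are not independent molecules, so intervals cover counting error only. The ratio step was tested on simulated data. No test was possible between conditions. Protein sequences were not used here. Values of a few genes that the rule names are not reported here.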

Additional observations from a re-analysis of the deposited data

How the results depend on the processing

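Of 202 values recomputed under alternatives, 32 moved by more than the replicate spread or, for counts, more than 1.5 times, 6 reversed and 2 newly passed a threshold. With 2 libraries, leaving 1 out always moves a mean by less than the SD, so those settings say nothing of stability. As FPKM the mean levels of Alx1, Alx4, Prrx1, Prrx2 and Shox2 were 172, 16.5, 93.96, 55.1 and 19.6, another scale with the same order. Within a library FPKM is TPM times a single factor, so the order there was fixed in advance and says nothing of stability. TPM over gene rows only gave 284 for Alx1, 27.3 for Alx4, 155 for Prrx1 and 90.9 for Prrx2, and the posterior mean TPM of Prrx2 was 78.3. Leaving out 1 library kept 9 to 10 pairs apart and moved the log2 ratio of Shox2 to Alx4 between -0.15 and 0.60. Counts not divided by length reversed Prrx2 to Alx4 (-0.71) and Shox2 to Alx4 (-0.78), since these genes differ in transcript length. They also took Alx1 to Prrx1 from 0.87 to 0.03 and Prrx2 to Shox2 from 1.51 to 0.07, while some other pair ratios rose. In replicate 1 Prrx1 had more counts than Alx1 (12878 against 12117). The place of Alx1 above Prrx1 thus rests on the division by length. Spike-in totals in place of TMM shifted the median gene by 0.56 (log2), to 0.52. They put 2 of 5 members past 1.5-fold (Alx1 at 0.60, Shox2 at 1.01), and the share of all genes past it was not computed. Alx4, Prrx1 and Prrx2 were reversed to 0.27, 0.36 and 0.29. Relative to the median gene, the members stood at 0.08 (Alx1), -0.24 (Alx4), -0.15 (Prrx1), -0.22 (Prrx2) and 0.50 (Shox2) under every scaling of counts. A scaling of counts is a single factor per library and cancels here, so this sameness was fixed in advance and says nothing of stability. By the ratio of TPM, Prrx2 was at -0.07 relative to the median. At 5 TPM, 7 other paired-class genes were detected in place of 12. By counts the leading transcript was the same in both libraries for 4 of 5 genes, since Prrx1-204 led Prrx1 in replicate 1. Posterior means and counts have no intervals of their own in the pair rule, so that count was not run for them, and a ratio of 2 libraries has no value with 1 left out. No paired analysis was possible because there is 1 group.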

Other observations

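Pitx1, another paired-class gene, differed more between the 2 libraries than the 5 described. It had 2108.8 and 741.8 expected counts in replicates 1 and 2, a log2 ratio of -1.22 (-1.34 to -1.09). It passed 1.5-fold lower in replicate 2, where 0.193% of 6212 genes with a mean count of 1000 or more did. Otx2, a head regulator at lower depth with 218 and 260 counts, went the other way at 0.55 (0.28 to 0.81). These genes were singled out after their values were seen, and the 2 libraries do not allow a test.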
